A study of Mus musculus with 6 samples.

Results

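A set of 10 genes that hydroxylate, fold, trim and crosslink collagen was examined in HT22 cells, an immortalised mouse hippocampal line. The genes were chosen by symbol with earlier results of these data known, and all 10 were among the 16472 genes of the authors' deposited table. The members are the prolyl 4-hydroxylase subunits P4ha1 and P4ha2, the lysyl hydroxylases Plod1, Plod2 and Plod3, the chaperone Serpinh1, the procollagen proteinase Bmp1 with its enhancer Pcolce, and the lysyl oxidases Lox and Loxl1. Cultures received AA147, a compound known to activate the stress regulators ATF6, which acts in the unfolded protein response, and NRF2, or the solvent DMSO as vehicle. The labels give the concentration of AA147 as 10 mM, a unit that may be a misprint for micromolar, so the dose is uncertain. Cells were collected after 16 h, giving 6 libraries with 3 in each group, and non-stranded mRNA libraries were sequenced. All libraries come from 1 cell line, and nothing in the labels says whether replicates were separate cultures, so p-values measure only the spread between these libraries, which may be technical.

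Collagen chains are modified in the endoplasmic reticulum before they can fold. Prolyl 4-hydroxylases add the hydroxyl groups that stabilise the triple helix, and lysyl hydroxylases modify lysines that later carry sugars or crosslinks. The chaperone encoded by Serpinh1, HSP47, binds the folded helix and escorts procollagen towards the Golgi. Outside the cell, proteinases remove the propeptides at both ends, and lysyl oxidases oxidise lysines so that neighbouring molecules become crosslinked. The hydroxylases need iron, oxoglutarate and ascorbate, and the oxidases need copper.

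The deposited table gives 1 line per gene, with a mean normalized count over the libraries, a log2 fold change with its standard error (SE) and an adjusted p. It has no value for a single library, so the level in each library, the depth of each library and the overlap of the groups were not analysed here. The table does not name the numerator of the fold change. A negative value is read throughout as lower with AA147, and every direction rests on that reading. A gene is said to have fallen or risen where the adjusted p was under 0.05.

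The lysyl oxidases, the proteinase enhancer, the chaperone and 1 of the prolyl hydroxylase subunits fell, while the calls did not include any lysyl hydroxylase. In the authors' deposited table, 6 of the 10 members fell and 0 rose (P4ha1, Serpinh1, Bmp1, Pcolce, Lox and Loxl1). Of all 13597 genes with an adjusted p, 20.2% were called, with 11.1% called negative and 9.05% positive. The negative share was 15.6% in the 5895 tested genes whose mean reached 1000, the range in which all 10 members lay. The median log2 fold change of the members was -0.33, against 0.01 over all tested genes, and 7 members had an unadjusted p under 0.05, the 6 called ones and Plod3. A called fold change of -0.5 or lower was found for 4 members, against 3.87% of tested genes. The members were chosen with earlier results of these data known, so these contrasts with all genes are a description. The plot of fold changes by gene shows a wide spread among the members, from -1.05 for Pcolce to 0.13 for Plod3 in the authors' deposited table. Tested against an interval of 0.5 around 0 on the log2 scale, 3 members remained called, and these were Pcolce, Lox and Loxl1.

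**Figure D1:**
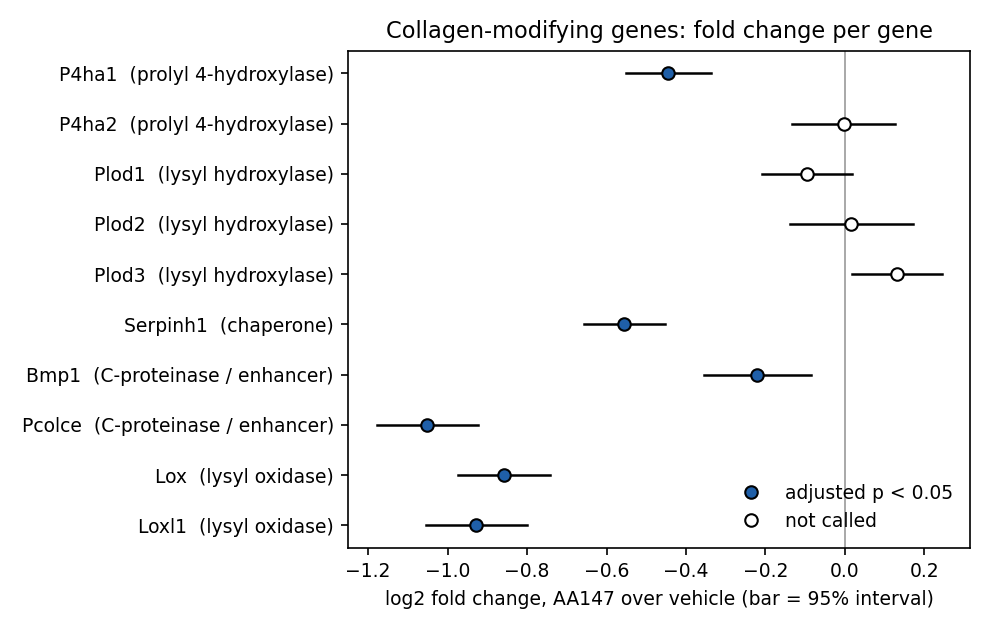
The log2 fold change of each of the 10 genes is plotted as a point on the horizontal axis, with its 95% interval as a bar, and genes are ordered by role. Filled points have an adjusted p under 0.05. The values run from -1.05 for Pcolce to 0.13 for Plod3, and the 3 Plod genes and P4ha2 lie near 0.

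Precision was similar across the members. In the authors' deposited table their SEs ran from 0.052 to 0.079. These were 0.87 to 1.11 times the median SE of the 200 genes closest in mean, so no member stood out by its error. Their means ran from 1138 for Plod2 to 48044 for Serpinh1 in the authors' deposited table. Together they held 0.515% of the summed means. The plot of fold change against mean places the 4 members with the lowest fold changes among abundant genes.

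**Figure D2:**
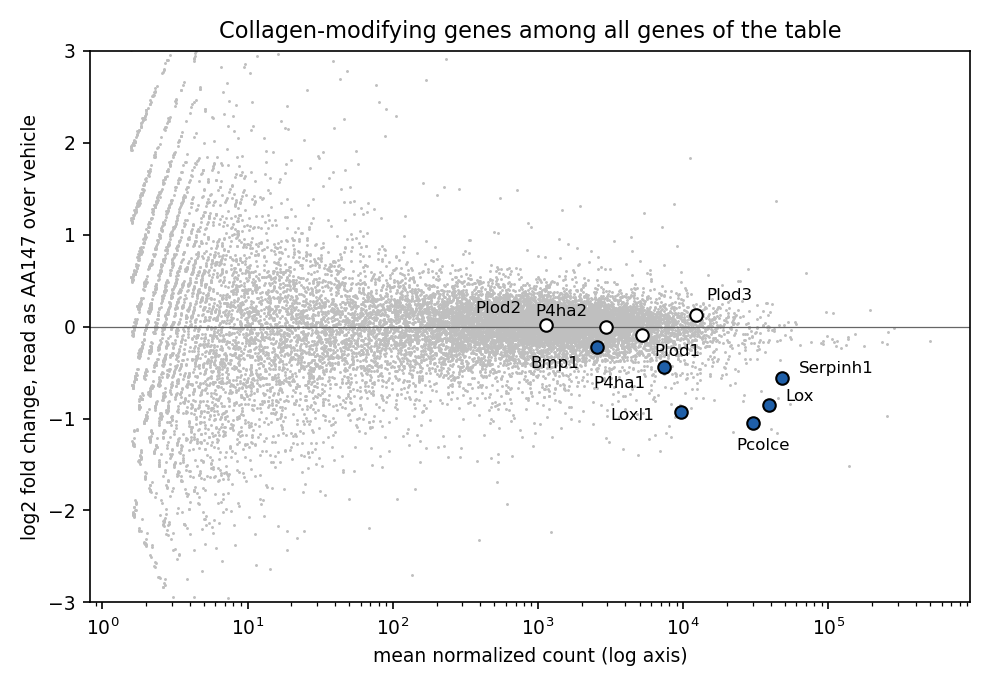
Each grey point is a gene of the authors' deposited table, with its mean normalized count on a log axis and its log2 fold change on the vertical axis. The 10 genes are the large points, filled where the adjusted p is under 0.05, and 165 genes lie outside the vertical range of -3 to 3. Pcolce, Loxl1, Lox and Serpinh1 lie below the band of genes with a similar mean.

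Levels can be compared between genes only per length, and for this each mean was divided by the length of the gene's GENCODE canonical transcript. On that scale Pcolce had 18687 and Serpinh1 17098 normalized counts per kb, the highest values of the set. Lox followed at 8126 per kb, then Plod3 at 3705, Loxl1 at 2917 and P4ha1 at 2451 per kb. P4ha2 had 1287, Plod1 881, Bmp1 673 and Plod2 306 normalized counts per kb. The highest and the lowest of these levels differed by 61.2 times. The spread over libraries behind this order is not known, so whether neighbours in it differ cannot be said.

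A level in each group was worked out from the mean and the fold change taken at face value, as a description with no error. With these implied levels, Pcolce went from 25205 normalized counts per kb with vehicle to 12168 with AA147, and Serpinh1 from 20347 to 13848 per kb. Serpinh1 thus lay above Pcolce with AA147 and below it with vehicle. Loxl1 went from 3823 to 2011 per kb, while Plod3 lay at 3539 and 3872 per kb. The order of that pair was also exchanged between the groups, as the plot of implied levels shows.

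**Figure D3:**
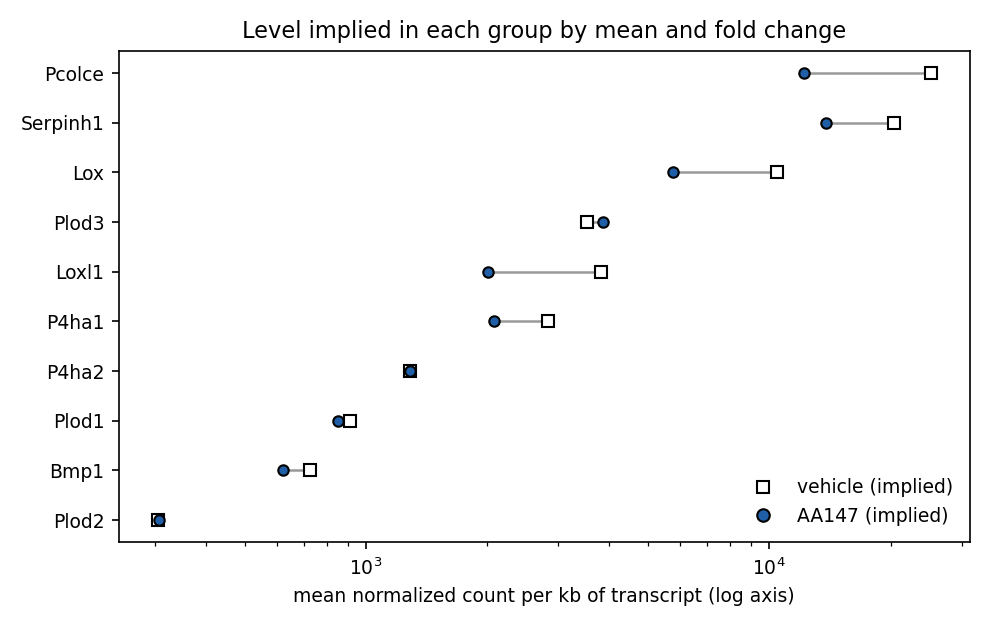
Mean normalized counts per kb of transcript, on a log axis, are shown as implied for vehicle (open squares) and AA147 (filled circles) by the mean and the fold change of each gene. Lines join the 2 groups, and genes are ordered by overall level. The longest lines belong to Pcolce, Loxl1 and Lox, and the markers of P4ha2 and Plod2 overlap.

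The 2 prolyl 4-hydroxylase alpha subunits, which carry the catalytic site, differed in their values. P4ha1, the broadly expressed subunit, had a mean of 7393 in the authors' deposited table and fell, with a log2 fold change of -0.44 (SE 0.055 and adjusted p 2.45e-14). This is 73.5% of the vehicle level, with a 95% interval from 68.2 to 79.1%. P4ha2, the alternative alpha subunit, had a fold change of -0.0032 (SE 0.066 and adjusted p 0.984) at a mean of 2934 in the authors' deposited table. Its 95% interval ran from 91.2 to 109% of the vehicle level and did not overlap that of P4ha1. The difference between the genes was not tested.

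The remaining prolyl 4-hydroxylase genes fell as well. P4ha3, another alpha subunit, had a fold change of -0.84 (SE 0.109 and adjusted p 5.23e-13) per the authors' deposited table at a mean of 535. P4hb, the disulfide isomerase that serves as the beta subunit for every alpha subunit, had a fold change of -0.17 (SE 0.049 and adjusted p 0.00524) per the authors' deposited table. Of the 4 genes of this enzyme, 3 therefore fell, by very different amounts, and P4ha2 was not called. The share called negative over all tested genes was 11.1%.

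The promoters of P4ha1 and P4ha2 are shown because the genes encode subunits of the same enzyme with different fold changes, and that of Serpinh1 because it is the abundant chaperone of the set. RefSeq promoter windows of mouse build GRCm38.p6 matched 6 of the 10 members, which were P4ha1, P4ha2, Plod1, Plod3, Serpinh1 and Pcolce. Only bases upstream of the outermost RefSeq start of each gene are printed. Capitals mark the letters ACGTG, the core of the hypoxia response element, and CCACG, a half-site of the endoplasmic reticulum stress element, on either strand. The P4ha1 sequence is chr10:59323046-59323196 on the plus strand, and the P4ha2 sequence is chr11:54100674-54100923 on the plus strand. The Serpinh1 sequence is chr7:99353240-99353489, printed for the minus strand.
P4ha1: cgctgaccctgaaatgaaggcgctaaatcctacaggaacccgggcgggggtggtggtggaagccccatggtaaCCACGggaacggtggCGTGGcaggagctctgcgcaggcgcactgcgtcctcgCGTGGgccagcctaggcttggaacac
P4ha2: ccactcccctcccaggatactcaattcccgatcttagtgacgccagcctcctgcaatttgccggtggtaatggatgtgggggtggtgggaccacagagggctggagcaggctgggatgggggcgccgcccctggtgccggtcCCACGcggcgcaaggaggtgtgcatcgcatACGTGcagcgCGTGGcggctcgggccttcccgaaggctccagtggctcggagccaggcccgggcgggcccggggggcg
Serpinh1: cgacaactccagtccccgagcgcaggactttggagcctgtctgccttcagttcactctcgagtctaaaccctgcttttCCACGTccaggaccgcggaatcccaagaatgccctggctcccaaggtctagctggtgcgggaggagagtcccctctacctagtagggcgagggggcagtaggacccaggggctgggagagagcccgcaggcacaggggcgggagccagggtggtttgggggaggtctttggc

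In the 250 bases upstream of the annotated start, ACGTG was found in 4 of the 6 windows, those of P4ha1, P4ha2, Plod3 and Serpinh1. This stands against 16.6% of all 32851 RefSeq windows, which were not matched to the members for base composition or expression. P4ha1 holds it on the minus strand at bases 16 to 12 before its start, in a stretch not printed because a longer transcript of the gene covers it. P4ha2 holds it on the plus strand at bases 78 to 74. CCACG was also found in 4 windows, 3 times in P4ha1, 2 times in P4ha2 and once each in Serpinh1 and Pcolce, against 28.3% of all windows. In Serpinh1 the 2 motifs overlap, at bases 172 to 167. The full stress element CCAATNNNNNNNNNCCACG and the ATF6 and XBP1 element TGACGTG, which contains ACGTG, were found in 0 of the 6 windows, against 0.113% and 1.65% of all windows. The antioxidant response element TGACNNNGC was found in 1 window, that of P4ha1 at bases 26 to 18, against 10.2% of all windows. That match also lies in the stretch not printed, which a longer transcript of the gene covers. The GC box GGGCGG was found in 5 of the 6 windows, against 32.7% of all windows, and the CCAAT box in 1, against 33.8%. What base composition adds to these shares was not tested. The letters of the hypoxia core thus occur in both prolyl hydroxylase windows, that of the called and that of the uncalled gene, and a match of letters is a description, not a binding site.

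The 3 lysyl hydroxylases were not called. Plod1, which modifies lysines in the helix, had a fold change of -0.10 (SE 0.058 and adjusted p 0.265) per the authors' deposited table at a mean of 5181. Plod2, which modifies lysines in the telopeptides at the chain ends, had a fold change of 0.02 (SE 0.079 and adjusted p 0.924) at a mean of 1138 in the authors' deposited table. Plod3, which also adds sugars to hydroxylysine, had a fold change of 0.13 (SE 0.058) at a mean of 12294 in the authors' deposited table, with an unadjusted p of 0.0247 and an adjusted p of 0.0985. Their 95% intervals, not adjusted for the number of genes, were 86.5 to 101% of the vehicle level for Plod1, 90.9 to 113% for Plod2 and 101 to 118% for Plod3. A fall of the size seen for P4ha1 lies outside each of these intervals. Plod3 was called positive, at 0.19 (adjusted p 0.0063), when a trend of the fold change on transcript length, GC content and mean was subtracted, an alternative chosen after the data were seen.

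The sugar transferase Colgalt1, which acts on the hydroxylysine that these enzymes make, was not called either, at 0.07 (SE 0.057 and adjusted p 0.428) per the authors' deposited table. The list of lysyl hydroxylation and glycosylation thus had 0 calls by the authors' DESeq2 test among 4 tested genes, with a median of 0.04. The share called over all tested genes was 20.2%. Of the 4 genes, 1, Plod3, had an unadjusted p under 0.05. Partners of the lysyl hydroxylases gave mixed values. P3h3, a prolyl 3-hydroxylase family member found in a complex with the Plod1 product, fell by 0.67 on the log2 scale (SE 0.088 and adjusted p 1.73e-12) per the authors' deposited table. P3h4, a further protein of that complex, had a fold change of 0.01 (SE 0.060 and adjusted p 0.955) per the authors' deposited table.

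The prolyl 3-hydroxylase complex modifies single prolines of the collagen chain. Of the 5 tested genes in the list named after it, 2 fell and 0 rose, with a median of -0.07. Over all tested genes, 11.1% were called negative. The list also counts P3h3 and P3h4, given above as proteins of the Plod1 complex. Besides P3h3, Crtap, the scaffold protein of the prolyl 3-hydroxylase complex, fell, at -0.25 (SE 0.067 and adjusted p 0.00215) per the authors' deposited table. The enzyme gene P3h1 at -0.03 (adjusted p 0.776) and the isomerase gene Ppib at -0.07 (adjusted p 0.534) were not called in the authors' deposited table.

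Serpinh1 fell, with a fold change of -0.56 (SE 0.052 and adjusted p 3.09e-24) at a mean of 48044 in the authors' deposited table. This is 68.1% of the vehicle level, with a 95% interval from 63.4 to 73.1%. Only 6.24% of tested genes had a lower fold change. Among the 7 tested chaperones and isomerases of procollagen, 5 fell and 0 rose, with a median of -0.52. The negative share over all tested genes was 11.1%. Fkbp10, the FKBP65 isomerase known as a partner of the Plod2 product, had a fold change of -0.29 (SE 0.056 and adjusted p 6.47e-06) per the authors' deposited table. Fkbp9 at -0.52 and Fkbp11 at -0.98 fell too, with adjusted p-values of 5.44e-18 and 9.29e-32 in the authors' deposited table. Sparc, a collagen-binding matrix protein, had a fold change of -0.84 (SE 0.056 and adjusted p 2.21e-49) per the authors' deposited table. Fkbp7 at 0.00 and Fkbp14 at -0.09 were not called in the authors' deposited table.

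Procollagen export uses enlarged COPII carriers. Of the 11 tested genes for it, 3 fell and 0 rose, with a median of -0.12, where 11.1% of all tested genes were called negative. Sec24d, a coat protein needed for procollagen export, had a fold change of -0.36 (SE 0.058 and adjusted p 2.75e-08) per the authors' deposited table. The transcription factor genes Creb3l2 at -0.87 (adjusted p 7.28e-20) and Creb3l1 at -0.39 (adjusted p 0.00534), known regulators of secretory and matrix genes, made up the other calls in the authors' deposited table, and that of Creb3l1 was lost by Bonferroni and with the statistic divided by its robust SD. The cargo receptor Mia3 (TANGO1) was not called, at -0.12 (SE 0.058 and adjusted p 0.142) per the authors' deposited table.

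Pcolce had the lowest fold change of the members. It encodes an enhancer that binds the C-propeptide region of procollagen and raises the activity of the proteinase encoded by Bmp1. In the authors' deposited table it had a mean of 30384, with a fold change of -1.05 (SE 0.065 and adjusted p 9.63e-56). The level with AA147 was 48.3% of that with vehicle, with a 95% interval from 44.2 to 52.7%, and 1.52% of tested genes had a lower fold change. Bmp1 itself fell by less, at -0.22 (SE 0.069 and adjusted p 0.00968) with a mean of 2563 in the authors' deposited table, and its 95% interval ran from 78.1 to 94.2% of the vehicle level. The Bmp1 call was lost with a Bonferroni adjustment, and it was lost again when the statistic was divided by its robust SD of 1.8.

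The proteinases that remove the propeptide at the other end of the chain also fell. Adamts2, the main procollagen N-proteinase, had a fold change of -1.26 (SE 0.074 and adjusted p 2.01e-62) at a mean of 3082 in the authors' deposited table. Adamts14, a related N-proteinase, had a fold change of -0.47 (SE 0.119 and adjusted p 0.00103) per the authors' deposited table. The positive call in this list was Mep1a, which encodes the metalloproteinase meprin alpha, at 6.64 (SE 1.34 and adjusted p 1.63e-05) per the authors' deposited table. Its mean of 9.11 is low, and its implied level with vehicle was 0.181 normalized counts, so the size of the fold rests on hardly any reads in that group. The Mep1a call was lost with the rescaled statistic (adjusted p 0.127). Of the 5 tested genes of the list, 4 fell and 1 rose, with a median of -0.47. The shares over all tested genes were 11.1% negative and 9.05% positive.

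Both lysyl oxidases among the members fell, by similar amounts. Lox had a mean of 38835, with a fold change of -0.86 (SE 0.059 and adjusted p 1.52e-45) per the authors' deposited table. This is 55.2% of the vehicle level, with a 95% interval from 50.9 to 59.8%. Loxl1, the family member linked to elastic fibres, had a mean of 9713, with a fold change of -0.93 (SE 0.064 and adjusted p 1.07e-44) per the authors' deposited table, which is 52.6% of the vehicle level with an interval from 48.2 to 57.4%. The intervals of the 2 genes overlap. Loxl3, another family member, fell as well, at -0.64 (SE 0.065 and adjusted p 1.39e-20) per the authors' deposited table. Loxl4 had a fold change of -0.0050 (SE 0.081 and adjusted p 0.979) and was not called in the authors' deposited table.

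Across the 6 lists of modifying genes, 19 tested genes were not members, and 11 of these fell and 1 rose, with a median of -0.25. All tested genes had shares of 11.1% called negative and 9.05% positive. The plot of all lists shows that each list other than lysyl hydroxylation and glycosylation held negative calls beside uncalled genes or a positive call. The lists were drawn up from general knowledge of the pathway with earlier results of these data known, so their direction is a description. Of the genes named from these 6 lists, P4hb, Crtap and Adamts14 lost their call with a Bonferroni adjustment and with the rescaled statistic, and Fkbp10 with the latter. P4hb lost it again with the trend subtracted.

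**Figure D4:**
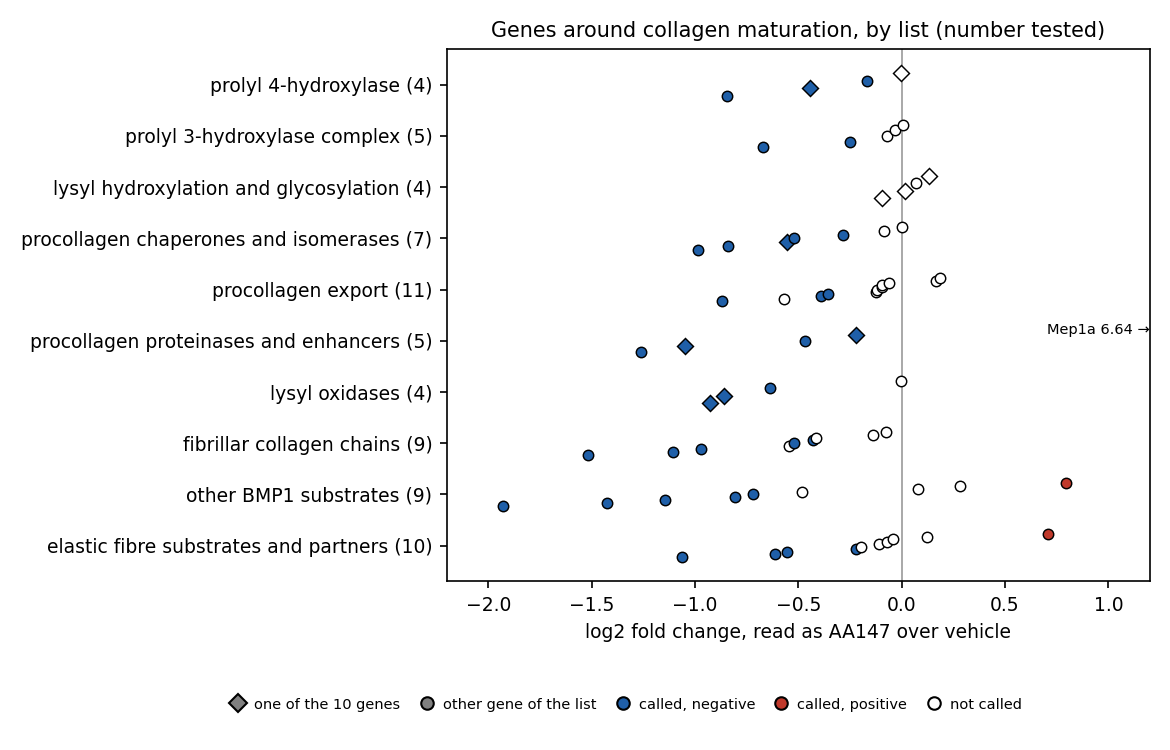
Log2 fold changes of tested genes are shown on the horizontal axis by list, with the number tested in brackets. Diamonds are the 10 genes and circles the other genes of a list, blue where called negative, red where called positive and open where not called, and the vertical position within a list only separates points. The lysyl hydroxylation list lies around 0, and Mep1a, at 6.64, lies beyond the axis.

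Some substrates of these enzymes fell too. Of the 9 tested fibrillar collagen chains, 5 fell, 4 were not called and 0 rose, with a median of -0.52. The negative share over all tested genes was 11.1%. Means of the called chains ran from 15753 for Col5a2 to 254004 for Col1a2 in the authors' deposited table. The uncalled chains had means of 17.0 for Col2a1, 38.2 for Col11a2, 172 for Col5a3 and 234 for Col27a1. Their fold changes were -0.14, -0.55, -0.42 and -0.08 in that order. Col1a1 and Col1a2, the chains of type I collagen, had fold changes of -1.52 and -0.97 in the authors' deposited table, and Col3a1 had one of -1.11. Col5a1 and Col5a2, chains of the type V collagen that is mixed into type I fibrils, had fold changes of -0.52 and -0.43 in the authors' deposited table. In 95% intervals on the log2 scale, Col1a1 ran from -1.65 to -1.39, below the interval of every member, including Pcolce at -1.18 to -0.92. Serpinh1, at -0.66 to -0.45, overlapped Col5a1 at -0.64 to -0.40 and lay above Col1a2 at -1.08 to -0.87. The difference between enzymes and chains was not tested, and both come from the same libraries.

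Bmp1 also trims other matrix proteins, and lysyl oxidases also act on elastic fibres. Of 9 tested genes listed as further substrates of Bmp1, with Prelp included as a related proteoglycan, 5 fell and 1 rose, with a median of -0.72. The small leucine-rich proteoglycans among these were Bgn (biglycan) at -1.14, Ogn at -1.93, Prelp at -1.43 and Dcn (decorin) at -0.81 in the authors' deposited table. Of 10 tested elastic fibre genes, 4 fell and 1 rose. Beside both lists, 11.1% of all tested genes were called negative and 9.05% positive. Fbln5, a fibulin that binds Loxl1, had a fold change of -1.06 (SE 0.072 and adjusted p 1.84e-46) per the authors' deposited table. Efemp2, a fibulin that binds Lox, had a fold change of -0.22 (SE 0.066 and adjusted p 0.00725), a call lost by Bonferroni, with the rescaled statistic and with the trend subtracted, and the called positive gene was Ltbp1, a binding protein of latent TGF-beta, at 0.71 (adjusted p 8.62e-18) per the authors' deposited table.

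Markers of cell types were read beside these genes. Of 22 neuronal markers, 4 had a line in the authors' deposited table, of which Tubb3 at a mean of 1199 and Eno2 at 62.1 were tested, and the other 18, with Map2, Rbfox3 and Snap25 among them, were not analysed here. Tubb3, a neuronal tubulin, rose, at 0.43 (SE 0.092 and adjusted p 5.67e-05), and Eno2 at -0.30 was not called, per the authors' deposited table. The implied summed level of the 4 neuronal markers was 1106 with vehicle and 1436 with AA147. Tubb3 alone went from 1022 to 1376, while the implied levels of Eno2, Stmn2 and Slc17a7 were each lower with AA147. Stmn2 and Slc17a7 had means of only 6.24 and 3.93 and no adjusted p. In 95% intervals, Eno2 ran from 54.5 to 121% of the vehicle level, Stmn2 from 8.68 to 137% and Slc17a7 from 4.55 to 141%. Of 12 fibroblast and mesenchymal markers 11 had a line, with Vim at a mean of 152806. Of these, 4 were called negative and 1 positive in the authors' deposited table, the negative ones being Pdgfra at -0.81, Pdgfrb at -0.97, Dcn at -0.81 and S100a4 at -0.78, and the positive one Prrx1 at 0.23. The shares over all tested genes were 11.1% negative and 9.05% positive. With the rescaled statistic, Dcn, Prrx1 and Tubb3 lost their call. The Prrx1 call was also lost at the limit of 0.01 on the adjusted p, by Bonferroni and with the trend subtracted. Vim at -0.08, Fn1 at -0.11 and Thy1 at -0.03 were not called in the authors' deposited table. The implied summed level of the 11 markers was 285491 with vehicle and 244996 with AA147. The largest part of this was S100a4, from 56793 to 33045, and uncalled Vim went from 157068 to 148544. Prrx1 and Postn had higher implied levels with AA147. The part of such markers in the fall of the collagen-modifying genes was not tested. In bulk RNA, fewer cells of a type and less RNA per cell cannot be told apart.

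Reads shared with other genes could touch a few values, since the libraries carried no strand. In GENCODE M39, 575 exonic bases of Plod3, 9.26% of its exons, overlap Znhit1 on the opposite strand, which had a mean of 2373, with a fold change of -0.07 in the authors' deposited table. For Plod2 the overlap was 503 bases with B430319G15Rik, at a mean of 131 in the authors' deposited table. Pcolce shared 112 bases with Fbxo24, at a mean of 51.2. No exon overlap was found for P4ha1, P4ha2, Plod1 and Serpinh1, and those of Bmp1, Lox and Loxl1 were with long noncoding RNAs and covered at most 4.04% of exonic bases. Among the families, the longest stretch of identical bases between canonical transcripts was 32, between Lox and Loxl1, 24 between Plod1 and Plod3, and 16 between P4ha1 and P4ha2.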

How the data were processed

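The series has 3 AA147 and 3 vehicle samples of HT22, sequenced as non-stranded mRNA libraries per the labels. DESeq2 and the mouse build mm9 are named in the submitters' processing notes, while the aligner, counter and annotation are not given in the sources used here. The authors deposited 1 table with 16472 genes and no value per library. Per the file headers its columns are a mean normalized count (a signal that is not whole reads), a log2 fold change with its SE, a test statistic (a score equal to the fold change over its SE, to within 3.06e-07), and a p-value with an adjusted p-value. Recomputing the deposited adjusted p-values by the Benjamini-Hochberg method over 13597 genes gave the same values, to within 7.58e-07, and the other 2875 genes, each with a mean of at most 8.41, had none. The means summed to 30768012, and depth per library is unknown.

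The members and gene lists were chosen with earlier results of these data known. Genes named are the members, genes of the lists, cell type markers, and genes whose exons overlap a member, and a few single values are not reported here. Calls were counted by sign at an adjusted p under 0.05. Intervals are the fold change plus or minus 1.96 SE. Lengths, GC content and overlaps came from GENCODE M39 on GRCm39 and promoters from RefSeq on GRCm38.p6, used for sequence only. No count model could be run on 1 line per gene, so the authors' test replaced it. Alternatives were a stricter limit, other adjustments, a fold limit, a null interval, centring and a rescaled statistic. Code for calls was tested on simulated data. Computations ran in Python 3.11.15 with statsmodels 0.14.6, SciPy 1.17.1 and pandas 2.3.3.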

Additional observations from a re-analysis of the deposited data

How the results depend on the processing

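No paired analysis was possible because only values over all libraries were deposited. Other normalizations, count filters, refits and leaving out each replicate were not run on such values. The count of 6 called members lay between 3 and 7 under the alternatives, with 3 against the null interval of 0.5, which is stricter by construction. Called pathway genes outside the members numbered 46 of 99, where 20.2% of all tested genes were called. They numbered 27 with a fold limit of 0.5 on the log2 scale and 14 against the null interval. With the statistic divided by its robust SD, 26 were called. The 2741 called genes of the whole table became 1818 at the stricter limit of 0.01 on the adjusted p, 774 by Bonferroni, 796 with that fold limit, 197 against the null interval and 489 with the rescaled statistic, each stricter by construction. Of 30 recomputed member fold changes, 27 kept direction and call, with a largest shift of 0.12. The exceptions all arose when the trend on length, GC content and mean, chosen after the data were seen, was subtracted over 9606 genes. Plod3 became called at 0.19, and the uncalled values of P4ha2 and Plod2 changed sign to 0.023 and -0.049. The cause was not tested. Of 126 counts for single lists, 33 moved by more than 1.5 times.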

Other observations

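Genes that supply cofactors to these enzymes were also read. Of 5 tested, 2 fell and 0 rose in the authors' deposited table, where 11.1% of all tested genes were called negative and 9.05% positive. The genes that fell were the copper chaperone gene Atox1 at -0.36 (SE 0.071 and adjusted p 8.47e-06) and the zinc transporter gene Slc39a13 at -0.33 (SE 0.067 and adjusted p 2.06e-05). The copper transporter genes Slc31a1 at -0.08 and Atp7a at -0.09 and the ascorbate transporter gene Slc23a2 at -0.13 were not called in the authors' deposited table. Both calls of this list were lost with the statistic divided by its robust SD, as Atox1 had an adjusted p of 0.107 and Slc39a13 one of 0.135. Among 7 tested genes for the uptake and breakdown of collagen, 2 fell and 2 rose, beside the same shares of 11.1% and 9.05% over all tested genes. Mrc2, an endocytic collagen receptor, had a fold change of -0.84 (adjusted p 9.24e-31) and the gelatinase gene Mmp2 one of -0.30 (adjusted p 2.64e-05), while the cathepsin genes Ctsl at 0.25 (adjusted p 0.000343) and Ctsb at 0.20 (adjusted p 0.0143) rose in the authors' deposited table. Both cathepsin calls were lost by Bonferroni, and with the rescaled statistic only the call of Mrc2 was left in this list.

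P4ha1, P4ha2, Plod2 and Lox are known targets of the hypoxia factor HIF1, and several of the enzymes are known targets of TGF-beta. Of 19 tested hypoxia targets outside the members, 3 fell and 1 rose, and their median was -0.02. For all tested genes, the shares were 11.1% called negative and 9.05% positive. The hormone gene Adm at -1.87, Ldha at -0.40 and Pdk1 at -0.44 fell and the demethylase gene Kdm3a rose, at 0.25, while Vegfa at 0.02, Pgk1 at -0.02 and Slc2a1 at 0.06 were not called in the authors' deposited table. Of 10 tested TGF-beta targets outside the members, 3 rose and 2 fell, with a median of 0.34. Cyr61 at 0.58 and Pmepa1 at 0.54 were among those that rose, and those that fell were Bhlhe40 at -0.38 and Itgav at -0.29 in the authors' deposited table. Kdm3a, Pmepa1, Bhlhe40 and Itgav lost their call by Bonferroni and with the rescaled statistic, and Pdk1 with the latter.

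Among markers of glia, Slc1a3, a glutamate transporter, fell, at -1.30 (adjusted p 2.39e-45) with a mean of 927 in the authors' deposited table. The microglia markers Tmem119 at -0.49 and Csf1r at 0.95 were called in opposite directions at means of 433 and 48.0 in the authors' deposited table. Both of these calls were lost by Bonferroni and with the rescaled statistic.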
